A study of Homo sapiens with 6 samples.

Results

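Aminoacyl-tRNA synthetases are the enzymes that attach each amino acid to its tRNA, and their transcripts were followed here in Saos-2, a human osteosarcoma cell line, with and without AIL. The genes were chosen by symbol: 20 for cytosolic enzymes, 16 for mitochondrial enzymes and 2, AIMP1 and AIMP2, for scaffold proteins that hold several cytosolic enzymes together. All 38 had a mean of at least 1 CPM, the deposited unit of reads scaled to library size, over the 6 samples and were tested, out of 11069 tested genes and 13439 listed ones. Saos-2 cells received 0.20 µM AIL, which is ailanthone, a quassinoid of the tree Ailanthus altissima, or DMSO, its solvent, for 24 h. Each group held 3 samples called biological replicates, with no statement of how the cultures were separated. The p-values therefore set each difference against the spread within the groups of these 6 samples only. The series asked which pathways AIL altered in this 1 line.

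Each synthetase first activates its amino acid with ATP and then transfers it to the matching tRNA, which carries it to the ribosome. Cytosol and mitochondria translate separately, and most amino acids have one nuclear gene for the cytosolic enzyme and another, whose symbol ends in 2, for the enzyme imported into mitochondria. GARS and KARS, for glycine and lysine, each serve both compartments and were counted as cytosolic. AIMP2 is not an enzyme, in spite of the ending of its symbol. Many cytosolic synthetase genes are known targets of ATF4, a transcription factor made when amino acids run short or when the endoplasmic reticulum is stressed.

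The 6 libraries held 32550000 to 38050000 reads after scaling, read from the step that 1 read makes in the values. Of the osteoblast markers, RUNX2 stood at 4.36 to 5.04 CPM, whereas SPARC, SPP1 and BGLAP were at 0.28 CPM or less in every sample, and SP7, ALPL, COL1A1, COL1A2 and IBSP were not analysed here. These 3 markers near 0 go against osteoblast-like cells. The sample titles give the line as Saos-2, and whether the cells match that label was not tested. The endothelial markers CDH5 and VWF stayed at 0.16 CPM or less. The 13 mitochondrially encoded transcripts, kept as a sign of RNA quality, had a median log2 difference of -0.20. Of these, 10 fell (76.9%), beside 25.9% of all tested genes called lower. The summed level of the 13 was 4205 to 4374 CPM under DMSO and 3600 to 3726 CPM under AIL. Its part in the results that follow was not tested.

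The 2 kinds of enzyme differed in their counts. Of the 16 mitochondrial enzymes, 10 rose and 2 fell under AIL, whereas of the 20 cytosolic enzymes 8 rose and 7 fell. Over all tested genes, 28.2% were called higher and 25.9% lower, 54.1% in all (limma on log2(CPM + 1), Benjamini-Hochberg adjusted p under 0.05). The mitochondrial enzymes were thus called higher in 62.5% and lower in 12.5% of cases, and the cytosolic ones in 40% and 35%. The median log2 difference, AIL minus DMSO, was 0.19 for the mitochondrial and 0.01 for the cytosolic enzymes, beside 0.0083 for all tested genes. Both scaffold genes rose. The groups did not overlap for 12 of 16 mitochondrial and 15 of 20 cytosolic enzymes, against 60.1% of all tested genes. No set of genes was tested against another, so these counts and medians describe the 2 kinds of enzyme.

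**Figure D1:**
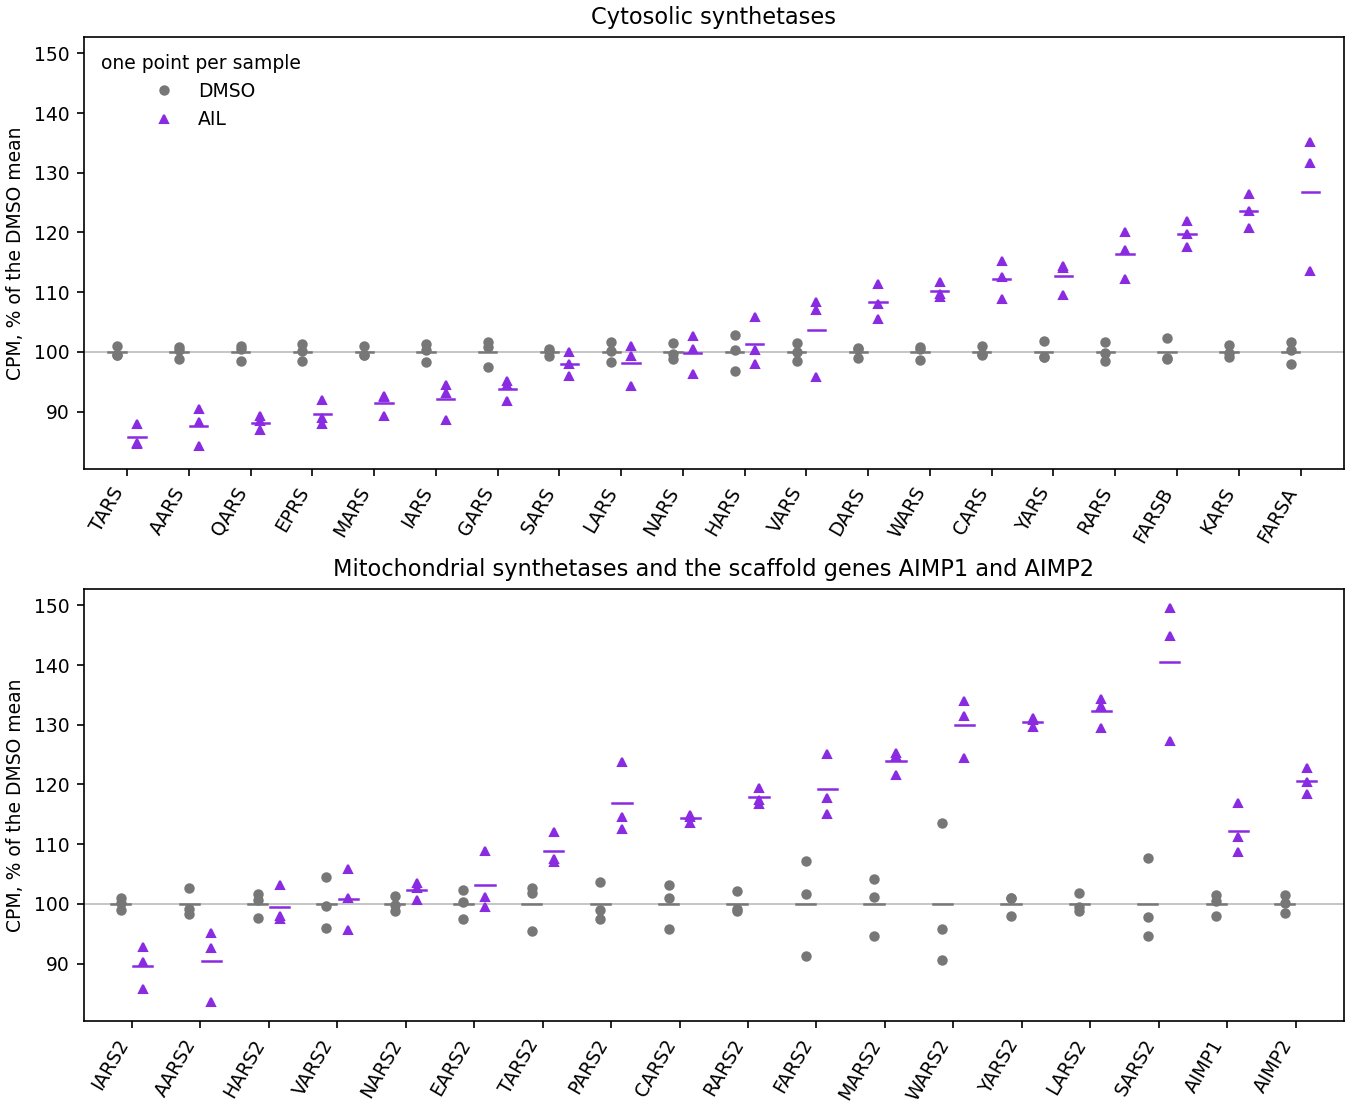
Level of each synthetase or scaffold transcript in each sample, as CPM in percent of the DMSO mean of that gene (y axis), with genes ordered by log2 difference within their class. Circles are DMSO samples, triangles AIL samples and short lines the means of 3 samples. The AIL samples lie below the DMSO samples from TARS to GARS and above them from DARS to FARSA in the upper panel, and above them from TARS2 to SARS2 and for both scaffold genes in the lower panel.

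Changes were small throughout: log2 differences ran from -0.22 to 0.33 in the cytosolic and from -0.16 to 0.46 in the mitochondrial enzymes. By sample, the median deviation of the 16 mitochondrial enzymes from their DMSO mean was 0.17, 0.195 and 0.166 on the log2 scale in the AIL samples and -0.012, 0.019 and -0.001 in the DMSO samples. For the cytosolic enzymes, the same medians were 0.044, -0.012 and -0.007 under AIL and 0.003, -0.013 and 0.014 under DMSO. The mitochondrial shift was therefore present in each AIL sample, and the cytosolic medians of the groups overlapped. Summed CPM of the mitochondrial enzymes went from 690.6, 699.8 and 691 to 752.2, 730.7 and 735. For the cytosolic enzymes the sums were 4973, 4920 and 5013 under DMSO and 4942, 4829 and 4915 under AIL, so the groups overlapped.

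**Figure D2:**
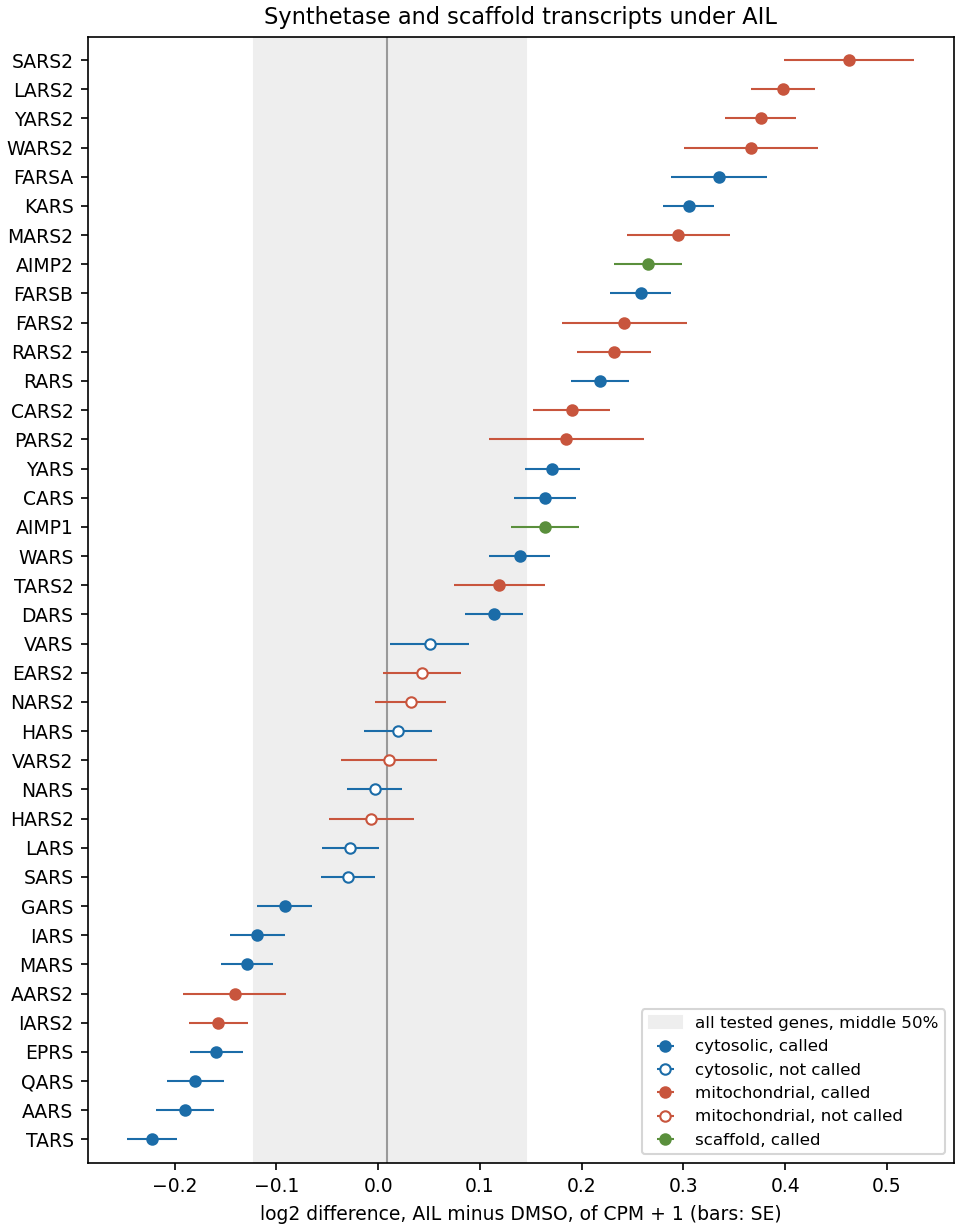
Log2 difference of each transcript (AIL minus DMSO, of CPM + 1, x axis) with its standard error, from 3 samples a group; blue marks cytosolic enzymes, red mitochondrial enzymes and green scaffolds, and open circles did not pass an adjusted p of 0.05. The grey band spans the middle 50% of all tested genes, from -0.122 to 0.145, and the grey line their median. The 4 highest transcripts, SARS2, LARS2, YARS2 and WARS2, are mitochondrial enzymes, and the 4 lowest, TARS, AARS, QARS and EPRS, are cytosolic ones.

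Among the mitochondrial enzymes, SARS2, which charges tRNA with serine, had the highest difference. Its level was 13.8, 15.71 and 14.26 CPM in the DMSO samples and 21.13, 21.81 and 18.57 CPM in the AIL samples. All 3 AIL samples were above all DMSO samples, and AIL replicate 3 was the lowest of them (log2 difference 0.46, SE 0.064, limma adjusted p = 1.04e-05). Without AIL replicate 3 the difference was 0.53. Of the 50-base words of SARS2, 47.7% also occur, on either strand, in transcripts of other annotated genes, mainly AC011455.2. Whether reads of these genes were counted for SARS2 was not tested.

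LARS2, the mitochondrial leucyl-tRNA synthetase, had 64.16, 65.71 and 63.74 CPM under DMSO and 85.94, 83.58 and 86.63 CPM under AIL. The AIL samples lay close together, well above the controls (log2 difference 0.40, SE 0.0312, limma adjusted p = 1.37e-08). YARS2, for tyrosine, was as even, with 41.3, 41.29 and 40.07 CPM against 53.62, 53.5 and 52.97 CPM (log2 difference 0.38, limma adjusted p = 9.91e-08). WARS2, for tryptophan, varied more under DMSO, with 16.32, 20.46 and 17.27 CPM against 24.13, 22.42 and 23.7 CPM. The second DMSO sample came closest to the AIL samples, without reaching them (log2 difference 0.37, SE 0.0659, limma adjusted p = 1.56e-04). MARS2, which charges the methionine that also starts mitochondrial proteins, went from 17.4 ± 0.849 to 21.6 ± 0.346 CPM (SD, n = 3; log2 difference 0.29).

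RARS2, FARS2 and CARS2, for arginine, phenylalanine and cysteine, rose by 0.23, 0.24 and 0.19 on the log2 scale. FARS2 had 14.99, 15.8 and 13.45 CPM under DMSO and 17.35, 16.97 and 18.46 CPM under AIL, a gap between the groups smaller than the spread within either. Weaker calls were TARS2 (26.5 ± 1.05 to 28.8 ± 0.737 CPM, limma adjusted p = 0.0336) and PARS2, the prolyl enzyme (4.23 ± 0.136 to 4.94 ± 0.251 CPM, SD, n = 3, limma adjusted p = 0.0483). PARS2 did not pass with a pseudocount of 0.1, median-of-ratios scaling, quantile normalization or the replicate number as a block (limma adjusted p = 0.0536, 0.0567, 0.113 and 0.0517), and TARS2 did not pass with quantile normalization (limma adjusted p = 0.0888). TARS2 also missed the threshold without DMSO replicate 3, AIL replicate 1 or AIL replicate 2 (limma adjusted p = 0.153, 0.0572 and 0.118). PARS2 missed it in each omission of 1 replicate except that of AIL replicate 3 (limma adjusted p = 0.0587 to 0.156).

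The 2 mitochondrial enzymes that fell charge isoleucine and alanine. IARS2 was at 221.33, 217.03 and 219.59 CPM under DMSO and at 203.56, 188.19 and 198.14 CPM under AIL (log2 difference -0.16, SE 0.0294, limma adjusted p = 2.19e-04). Its groups were well apart. AARS2 was nearer to its controls, with 26.46, 26.21 and 27.38 CPM against 25.39, 24.72 and 22.31 CPM, and AIL replicate 3 was the lowest sample (log2 difference -0.14, limma adjusted p = 0.0262). Without that sample the AARS2 difference was -0.09 (limma adjusted p = 0.119), and without DMSO replicate 1 or 3 the adjusted p was 0.0509 or 0.0915. EARS2, HARS2, NARS2 and VARS2, for glutamate, histidine, asparagine and valine, had log2 differences of 0.04, -0.01, 0.03 and 0.01 and did not pass. Of the 50-base words of VARS2, 21.2% occur in other genes, mainly its neighbour GTF2H4.

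Of the cytosolic enzymes that rose, FARSA, FARSB, KARS and RARS had the highest differences. FARSA and FARSB encode the 2 subunits of the phenylalanyl enzyme. FARSA had 87.85, 86.63 and 84.72 CPM under DMSO and 113.67, 116.75 and 98.16 CPM under AIL (log2 difference 0.33, SE 0.0471, limma adjusted p = 1.27e-05). AIL replicate 3 again stood below the other AIL samples, and without it the difference was 0.41. FARSB was more even, at 87.33, 87.42 and 90.39 CPM against 105.89, 103.98 and 107.83 CPM (log2 difference 0.26, limma adjusted p = 1.31e-06). The ratio of FARSB to FARSA reads was 0.994, 1.01 and 1.07 under DMSO and 0.932, 0.891 and 1.10 under AIL, so that the groups overlapped for the balance of the 2 subunits.

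KARS, which makes lysyl-tRNA for both cytosol and mitochondria, rose from 409.72, 401.22 and 403.94 CPM to 512.01, 488.79 and 500.51 CPM. This was the smallest p of the cytosolic set (log2 difference 0.30, SE 0.025, limma adjusted p = 2.41e-08). GARS, the other enzyme that serves both compartments, fell, with 192.9 ± 4.18 CPM under DMSO and 180.9 ± 3.38 CPM under AIL (SD, n = 3; log2 difference -0.09, limma adjusted p = 0.00868, and 0.0509 without an intensity trend). RARS, for arginine, rose from 174.9 ± 2.74 to 203.7 ± 6.98 CPM. YARS, CARS, WARS and DARS, for tyrosine, cysteine, tryptophan and aspartate, rose by 0.17, 0.16, 0.14 and 0.11 on the log2 scale, and none of their AIL samples overlapped the controls.

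TARS, the threonyl enzyme, had the lowest difference of all 38 genes. Its DMSO samples were at 827.18, 827.31 and 839.64 CPM and its AIL samples at 704.53, 702.97 and 730.33 CPM (log2 difference -0.22, SE 0.0245, limma adjusted p = 7.82e-07). AARS, for alanine, fell from 265.42, 270.48 and 269.43 CPM to 236.83, 242.87 and 226.04 CPM (log2 difference -0.19, limma adjusted p = 2.22e-05). In both genes the lowest DMSO sample was clearly above the highest AIL sample. QARS, for glutamine, fell from 116.0 ± 1.49 to 102.3 ± 1.41 CPM, and EPRS, a single protein with a glutamyl and a prolyl enzyme, from 439.1 ± 6.58 to 393.2 ± 9.41 CPM (SD, n = 3). MARS and IARS, for methionine and isoleucine, had log2 differences of -0.13 and -0.12, both called. HARS, LARS, NARS, SARS and VARS did not pass, with log2 differences of -0.03 to 0.05. For VARS, for valine, AIL replicate 3 lay below all DMSO samples at 95.74 CPM and the other AIL samples above them at 108.34 and 106.88 CPM. Without that sample VARS was called (log2 difference 0.11, limma adjusted p = 0.00296).

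Mitochondrial enzymes could be set beside the cytosolic enzyme of the same amino acid in 17 pairs, where EPRS and FARS2 each enter 2 pairs. In 8 pairs both genes were called in the same direction, 6 times higher and 2 times lower. Of each kind of enzyme 75% were called in either direction, and of all tested genes 54.1%. Both rose for cysteine, arginine, tryptophan, tyrosine and phenylalanine (with FARSA and with FARSB), and both fell for alanine and isoleucine. In 3 pairs the cytosolic gene fell and the mitochondrial one rose: MARS and MARS2, TARS and TARS2, and EPRS and PARS2. The reverse was seen in 0 pairs. In the 3 pairs with opposite calls, the calls of TARS2 and PARS2 were lost under other settings, and MARS2 kept its call under each alternative tried. Among the pairs called in the same direction, AARS2 lost its call under some settings. In 3 further pairs 1 gene was called, and the widest distance of all pairs was that for serine, with -0.03 for SARS and 0.46 for SARS2. Leucine came next, with -0.03 for LARS and 0.40 for LARS2. Neither the difference between the genes of a pair nor their agreement was tested.

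**Figure D3:**
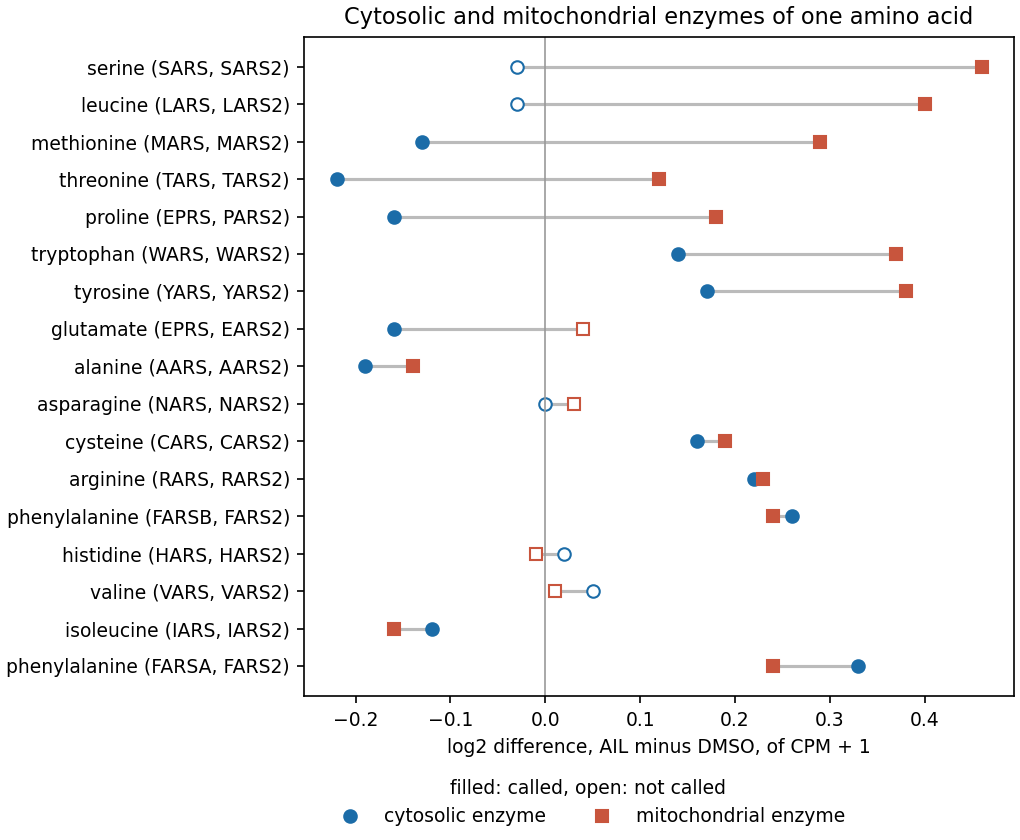
Log2 difference (AIL minus DMSO, of CPM + 1, x axis) for the cytosolic (blue circles) and mitochondrial (red squares) enzyme of each amino acid, joined by a line and ordered by the distance between them; filled symbols passed an adjusted p of 0.05. The mitochondrial symbol lies to the right in 12 of 17 pairs, with the longest lines for serine, leucine and methionine.

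In the cytosol, 8 enzymes (DARS, EPRS, IARS, KARS, LARS, MARS, QARS and RARS) work in one multi-synthetase complex together with AIMP1, AIMP2 and EEF1E1. The 3 scaffold genes rose. AIMP2 had 53.28, 52.37 and 54.03 CPM under DMSO and 65.31, 64.06 and 63.05 CPM under AIL, with no overlap (log2 difference 0.26, SE 0.0331, limma adjusted p = 3.43e-06). Of its 50-base words, 25.2% occur in other genes, mainly its neighbour EIF2AK1. AIMP1 rose from 73.6 ± 1.31 to 82.6 ± 3.11 CPM, and EEF1E1 from 60.7 ± 1.68 to 65.2 ± 1.71 CPM (SD, n = 3; log2 difference 0.10, limma adjusted p = 0.0197). The enzymes held by these scaffolds were mixed: 3 of 8 rose (DARS, KARS and RARS, 37.5%) and 4 fell (EPRS, IARS, MARS and QARS, 50%). LARS did not pass, and the median of the 8 was -0.07. Of the 12 enzymes outside the complex, 5 rose (41.7%) and 3 fell (25%), with a median of 0.03. The shares over all tested genes, for these groups and the classes that follow, were 28.2% called higher and 25.9% lower. Synthetases also fall into 2 structural classes by their catalytic fold. In the cytosol, 4 of 9 class I enzymes rose (44.4%) and 3 fell (33.3%). Of 10 cytosolic class II enzymes, 4 rose (40.0%) and 3 fell (30.0%). EPRS, which holds both folds, was left out. In mitochondria, 6 of 9 class I enzymes rose (66.7%) and 1 fell (11.1%). Of 7 mitochondrial class II enzymes, 4 rose (57.1%) and 1 fell (14.3%).

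Of 12 cytosolic enzymes known as ATF4 targets, 3 rose (CARS, WARS and YARS), 6 fell (AARS, EPRS, GARS, IARS, MARS and TARS) and 3 did not pass, with a median log2 difference of -0.06. Of 7 enzymes outside that list, 5 rose (DARS, FARSA, FARSB, KARS and RARS, 71.4%) and 1 fell (QARS, 14.3%). HARS did not pass, and the median of the 7 was 0.22. Over all tested genes, 28.2% were called higher and 25.9% lower. VARS was placed in neither list. The lists come from general knowledge of ATF4, but they were drawn up with earlier results of these data known. In the same libraries ATF4 mRNA rose from 281.2 ± 4.74 to 399.8 ± 9.79 CPM (SD, n = 3; log2 difference 0.51), and DDIT3, the gene of the stress factor CHOP, by 0.34. XPOT, which exports tRNA from the nucleus and is another known ATF4 target, fell by 0.09 on the log2 scale (limma adjusted p = 0.00843). Of 12 genes for the sensing of uncharged tRNA and the ATF4 response, 7 rose (ATF4, DDIT3, CEBPB, GCN1L1, EIF2S1, ASNS and ATF3) and 1 fell, 58.3% and 8.33% beside 28.2% and 25.9% of all tested genes. The one that fell was EIF2AK4, which encodes GCN2, the kinase that senses uncharged tRNA, and TRIB3, CHAC1, SESN2 and IMPACT did not pass.

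**Figure D4:**
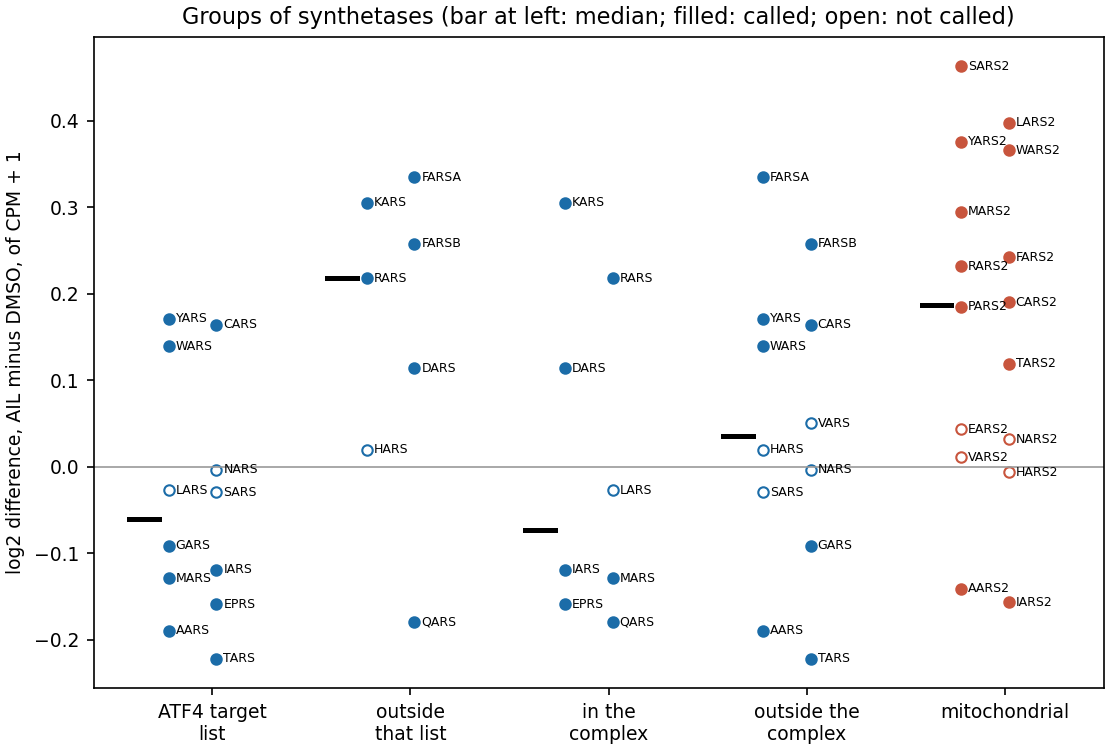
Log2 difference of each enzyme (AIL minus DMSO, of CPM + 1, y axis) by group, with the median of each group as a bar at its left; the first 2 columns and the middle 2 columns each divide the cytosolic enzymes in another way, and VARS is in neither of the first 2. Filled circles passed an adjusted p of 0.05. The median is -0.06 for the ATF4 target list, 0.22 outside that list and 0.19 for the mitochondrial enzymes.

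ATF4 binds DNA with C/EBP proteins at elements with the core TGATGNAA. This core was searched on both strands in the 250 bases before the RefSeq start of each gene (build GRCh38.p14), in 31 of the 38 genes; AARS, DARS, LARS, VARS, YARS, AARS2 and VARS2 were not analysed. The core was present in 2 of 15 cytosolic and 1 of 14 mitochondrial promoters, beside 3.14% of 35116 promoters in all. The cytosolic genes were GARS and IARS, which both fell, so that 2 of 6 searched cytosolic promoters of genes that fell held the core, and 0 of 6 of genes that rose. The mitochondrial one was YARS2. A match describes letters in this window only and is no evidence of binding. The promoters of IARS and GARS are shown because they were the only searched cytosolic promoters that held the core. They are printed 5′ to 3′ on the strand of the gene and end at the base before its start, with the match in capitals. Both matches lie on the opposite strand and so read TTNCATCA. They begin 13 and 33 bases before the start in IARS (chr9:92293698-92293947, minus strand) and GARS (chr7:30594628-30594877, plus strand).
IARS: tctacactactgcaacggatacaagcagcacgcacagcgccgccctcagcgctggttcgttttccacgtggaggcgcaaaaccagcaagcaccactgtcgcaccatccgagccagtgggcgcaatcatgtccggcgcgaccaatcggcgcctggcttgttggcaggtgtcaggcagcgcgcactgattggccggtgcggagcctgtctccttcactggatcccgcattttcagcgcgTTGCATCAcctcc
GARS: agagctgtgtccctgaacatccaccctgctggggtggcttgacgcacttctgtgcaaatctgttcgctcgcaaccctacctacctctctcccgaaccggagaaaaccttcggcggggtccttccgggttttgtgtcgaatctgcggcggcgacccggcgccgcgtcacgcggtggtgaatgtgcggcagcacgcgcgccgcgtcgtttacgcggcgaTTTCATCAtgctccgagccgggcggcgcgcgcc

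Other genes of tRNA use are given from lists, each beside the 28.2% called higher and 25.9% called lower over all tested genes. Of 11 accessory factors of tRNA charging, 6 rose (54.5%) and 2 fell (18.2%). MTFMT, which adds a formyl group to the methionine of the mitochondrial initiator tRNA, fell from 17.7 ± 0.312 to 14.5 ± 0.55 CPM (SD, n = 3; log2 difference -0.28). Mitochondria have no glutaminyl-tRNA synthetase of their own and instead convert glutamate on the tRNA with an amidotransferase. PET112, the gene of its B subunit, rose from 31.1 ± 0.451 to 46.2 ± 0.825 CPM (SD, n = 3; log2 difference 0.56, limma adjusted p = 2.30e-09), QRSL1, its A subunit, rose by 0.13 on the log2 scale, and GATC, its C subunit, did not pass. DTD1, which removes D-amino acids from tRNA, and AARSD1, a homologue of the editing domain of alanyl-tRNA synthetase, rose by 0.35 and 0.46. Of 8 factors that deliver charged tRNA to the ribosome or recharge those factors, 5 rose (62.5%) and 1 fell (12.5%). EEF1G, EEF1A1 and EEF1A2 of the cytosolic elongation factor rose by 0.30, 0.31 and 0.74, and EEF1B2 of the same factor fell (-0.17).

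Of 24 genes for tRNA processing, splicing and export, 9 rose (37.5%) and 6 fell (25%). Of these 24, 10 are protein subunits of ribonuclease P, which trims the 5′ end of tRNA, a subset that was not among the planned lists. Among the 10, 6 rose, 2 fell (POP1 and POP7) and 2 did not pass (POP5 and RPP25). The shares over all tested genes were 28.2% called higher and 25.9% lower. POP1 fell from 107 ± 1.02 to 76.1 ± 2.12 CPM (SD, n = 3), and RPP30, RPP21 and POP4 rose by 0.45, 0.42 and 0.27 on the log2 scale, as did RPP14, RPP38 and RPP40. Of 24 genes of RNA polymerase III, which transcribes tRNA genes, and its factors, 5 rose (20.8%), 1 fell (4.17%) and 18 did not pass. GTF3A, POLR1C, POLR1D and GTF3C6 rose by 0.24, 0.25, 0.19 and 0.16. Of 13 genes for mitochondrial tRNA modification and 5′ processing, 3 rose (PUS1, NSUN3 and TRMT61B, 23.1%), 0 fell and 10 did not pass.

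The length of the transcripts moved with the results. Over all tested genes with a known length, the shortest of 3 length classes, up to 2614 bases, had a median log2 difference of 0.05 with 35.9% called higher and 19.1% lower, and the longest class -0.02 with 24.3% and 30.5%. Cytosolic enzymes that rose had a median length of 2589 bases and those that fell 3477 bases, and for the mitochondrial enzymes the values were 2234 and 3707 bases. Across the 20 cytosolic enzymes, length and log2 difference had a Spearman rho of -0.46, and across the 16 mitochondrial ones -0.32, given as descriptions across genes of the same 6 libraries. Level moved with the difference too: the Spearman rho of DMSO mean CPM and log2 difference was -0.55 across the cytosolic and -0.30 across the mitochondrial enzymes, where the DMSO values enter both measures. The mitochondrial enzymes had the lower levels, with a median of 11.4 CPM per kb of transcript (1.95 to 58.4), beside 70.1 (23.6 to 187) for the cytosolic ones. The part of length and level in the counts of the 2 kinds of enzyme was tried only through the trend removal that follows. After removal of a trend over length, GC content and level, 10 cytosolic enzymes were called higher and 7 lower, and 9 mitochondrial ones higher and 2 lower, with medians of 0.06 and 0.14. The coefficient of variation was larger under AIL in 17 of 20 cytosolic enzymes, 9 of 16 mitochondrial enzymes and both scaffold genes, beside 59.2% of all tested genes. The median coefficient was 1.43% under DMSO and 2.61% under AIL for the cytosolic enzymes, and 2.84% and 3.47% for the mitochondrial ones.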

How the data were processed

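Gene expression was measured by RNA-seq in 6 samples of Saos-2 cells, 3 per treatment, grouped by the titles of the samples. The authors deposited 1 table of TMM-normalized CPM printed to 2 decimals, per the file name. RSEM and edgeR 3.8.5 are named, without a role, in the submitters' processing notes. Aligner, genome build, annotation and strandedness were not given in the sources used here, so reads shared between overlapping or antisense genes may be counted for either gene. Low values were multiples of 1 step per library. After rounding, 52.3 to 65.0% of them lay within 0.1 reads of a whole number, below the 95% required here for a count test. Within 0.2 reads, the share was 99.84 to 99.98%. The step gives the depth of each library.

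Differences were tested with limma 3.58.1 (R 4.3.3) on log2(CPM + 1) with an intensity trend, two-sided, without covariates, on 11069 genes averaging 1 CPM or more, and the Benjamini-Hochberg adjustment ran over all of them. Such differences understate the change of low genes. Every chosen symbol is named, and of each other list up to 4 genes with the smallest p, with EEF1E1, QRSL1, XPOT and ATF4. EIF2AK4, EIF2S1, ASNS, ATF3, TRIB3, CHAC1, SESN2, IMPACT, GATC, POP5, POP7, RPP14, RPP25, RPP38 and RPP40 were named after their values were seen. Members and lists were chosen with earlier results of these data known. Between samples of the same replicate number, deviations from the group mean had correlations of 0.159, 0.133 and 0.129, above 0.1 in each pair. This evidence of pairs comes from the data alone. The main fit left the number out, and a fit with the number as a block was an alternative. Over all tested genes, the block fit called 3347 higher and 3121 lower, beside 3122 and 2869 in the main fit. The other alternatives were pseudocounts of 0.1 and 5, no filter or a minimum mean of 5 CPM, median-of-ratios scaling, quantile normalization, no intensity trend, omission of each replicate and, added after seeing the data, removal of a trend over length, GC content and level. Lengths, GC content and 50-base words come from GENCODE 29 transcripts, matched by symbol for 12610 of 13439 genes, and promoters from RefSeq (GRCh38.p14). A few items are not reported here.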

Additional observations from a re-analysis of the deposited data

How the results depend on the processing

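Of the 38 genes, 32 kept their call under all 15 alternatives, and 0 changed sign while called. HARS and VARS were called after removal of the length, GC and level trend (adjusted p = 0.0206 and 0.0154, limma), VARS also without AIL replicate 3, and GARS, AARS2, PARS2 and TARS2 lost their calls under at least 1 alternative each. The number of mitochondrial enzymes lower under AIL was 2 and became 1 without an intensity trend, and 1 to 2 with each replicate left out, as AARS2 lost its call. The number of mitochondrial enzymes higher was 8 to 10 with each replicate left out and 8 with quantile normalization. Cytosolic counts stayed at 8 to 9 higher and at 7 lower with each replicate left out. The mitochondrial median log2 difference of 0.187 was 0.207 with a pseudocount of 0.1, 0.141 with a pseudocount of 5, 0.161 with quantile normalization and 0.143 after trend removal, and 0.168 to 0.198 with each replicate left out. The cytosolic median of 0.008 was 0.057 after trend removal and -0.01 to 0.024 with each replicate left out. The alternatives change the scale or the samples, and the cause of each shift was not tested further. With the replicate number as a block, 9 mitochondrial enzymes were higher and 2 lower, and 8 cytosolic enzymes were higher and 7 lower. The block changed no call other than that of PARS2. The planned count tests were not run, since rounding left too few low values within 0.1 reads of a whole number. PARS2, at 4.58 CPM, has no value with a minimum mean of 5 CPM, and its adjusted p was 0.00788 without an intensity trend (limma).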
